A study of Mus musculus with 30 samples.

Results

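The 10 genes described here encode the pentose phosphate enzymes G6pdx, Pgls, Pgd, Tkt, Taldo1 and Rpia and 4 further enzymes that form NADPH, Me1, Idh1, Idh2 and Nnt. They were picked by name, by matching the symbol of each to 1 gene identifier, from a table of 29861 genes. Measured values played no role in that matching, but the 10 genes were chosen with earlier results of these data known. Transcript levels were measured in CCG-HTA-1, a primary tail fibroblast line from UMHet3 mice, a genetically mixed stock, at passage 4; the labels give the mice as 5 to 8 weeks old, except for 1 library (Dihydrorotenone replicate 1), whose label says 8 to 11 weeks. All groups shared high-glucose medium without pyruvate, 10% CO2 and ambient oxygen; the compound or the solvent went on 24 hours after plating, and cells were collected 48 hours after treatment. The groups were DMSO, the solvent control, with 6 libraries, and Antimycin A, Dihydrorotenone, Diphenyleneiodonium Cl, Cardamonin, BerberineA, Clofilium tosylate, AEG 3482 and Podofilox with 3 libraries each, 30 in all. The doses are not used here. By its title, the series screened small molecules for NRF2-dependent and NRF2-independent stress resistance; NRF2 is a transcription factor activated by electrophiles and oxidants.

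NADPH carries the electrons with which cells reduce glutathione and thioredoxin and build fatty acids and sterols. In the cytosol much of it comes from the oxidative branch of the pentose phosphate pathway, in which glucose 6-phosphate dehydrogenase (G6pdx) and 6-phosphogluconate dehydrogenase (Pgd) each reduce NADP+, with the lactonase Pgls acting between them. The non-oxidative branch, with the isomerase Rpia, transketolase (Tkt) and transaldolase (Taldo1), interconverts the sugar phosphates and returns carbon to glycolysis. Malic enzyme (Me1) and isocitrate dehydrogenase (Idh1) also make NADPH in the cytosol, while Idh2 and the transhydrogenase Nnt make it in mitochondria. G6pdx, Pgd, Tkt, Taldo1 and Me1 are known targets of NRF2, which binds antioxidant response elements.

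The motif of such an element has the core TGACNNNGC. It was searched on both strands of the RefSeq promoter windows of GRCm38.p6, 300 bases each, from 250 before to 50 after a gene's start. Of the 10 genes, 9 had such a window (12 windows), and 3 held a match. For comparison, 4071 of 32851 promoters in the table (12.4%) and 3781 of 27025 genes (14.0%) held one. The windows of Taldo1, Tkt, Pgls, Rpia, Idh1 and Idh2 held none. All 10 genes, with or without a match, were called with Cardamonin below. All 3 matching genes are shown; capitals mark the 9 matching letters, and the neighbouring bases are in lower case.
G6pdx: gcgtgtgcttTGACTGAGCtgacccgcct
Me1: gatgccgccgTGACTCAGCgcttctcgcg
Pgd: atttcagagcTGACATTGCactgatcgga
The G6pdx stretch is chrX:74428919-74428947 on the + strand, opposite to the gene, and its match begins at −57 from the start site. The Me1 stretch is chr9:86695902-86695930 on the − strand, the strand of the gene, and its match begins at −6. The Pgd stretch is chr4:149166061-149166089 on the − strand, also the strand of the gene, and its match begins at +3 from a second annotated start. A match is a description of these letters; binding was not measured, and a window with no match says nothing about binding elsewhere.

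Values are TPM, transcripts of a gene per 1000000 transcripts, which correct for transcript length, so levels can be compared between genes. They are shares of a total, so comparisons between libraries depend on the scaling, and results under other scalings are given below. Changes are differences in log2(TPM + 1) with their standard error (SE), from limma fitted over all 30 libraries. A gene was called where its p, adjusted by Benjamini-Hochberg over 13644 genes, was below 0.05; these genes reached 1 TPM in 3 or more libraries. All 10 genes passed that filter. Replicates are libraries of 1 cell line, so the p-values measure only the spread between them. Library numbers run consecutively within groups, so an effect of library order and an effect of a compound cannot be told apart. Sequencing depth is unknown from TPM. Between 12229 and 12700 genes per library reached 1 TPM. Fibroblast markers (8 of 8, among them Col1a1 and Vim) were present in all 30 libraries and summed to 3766 to 12071 TPM, whereas keratinocyte markers summed to 1.02 to 2.41 TPM, with Krt5 at 0 in all libraries. The fibroblast sum was lower with Cardamonin (4333 ± 513 TPM, SD, n = 3) than with DMSO (10170 TPM, n = 6) or AEG 3482 (11360 TPM, n = 3). Macrophage markers summed to 67.6 TPM with DMSO, 129 ± 10.4 TPM with Podofilox (n = 3), 93.3 TPM with Cardamonin and 54.4 TPM with AEG 3482, with Ptprc at 0.24 to 0.88 TPM in all libraries. Endothelial markers, mostly Tek, summed to 7.20 TPM with DMSO, 1.14 TPM with Cardamonin and 1.68 TPM with AEG 3482, with Cdh5 at 0.030 TPM or less. Neural crest, melanocyte and Schwann markers summed to 7.73 TPM with DMSO, 4.04 TPM with Cardamonin, 2.82 TPM with AEG 3482, 9.89 TPM with Podofilox and 13.8 to 18.6 TPM with the other 5 compounds, with Dct at 0.047 TPM or less. Skeletal muscle, chondrocyte and adipocyte markers summed to at most 1.57 TPM in any library. The part of these shifts in the results below was not tested. In bulk RNA, a lower level per cell and fewer cells that express a gene cannot be told apart.

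In DMSO, Pgd was the most abundant of the 10 transcripts at 229 ± 11.8 TPM (SD, n = 6), followed by Idh1 at 190.4 ± 4.64 TPM. Tkt (99.8 TPM), Pgls (97.5 TPM) and Taldo1 (85.2 TPM) came next, and neighbours among these 3 had ranges that overlapped. Idh2 (64.3 TPM) and Me1 (60.9 TPM) overlapped as well. G6pdx, the first enzyme of the oxidative branch, stood at 45.1 ± 3.18 TPM and overlapped neither neighbour in the order. Nnt (12.04 TPM) and Rpia (11.8 TPM) were the least abundant and overlapped each other.

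**Figure D1:**
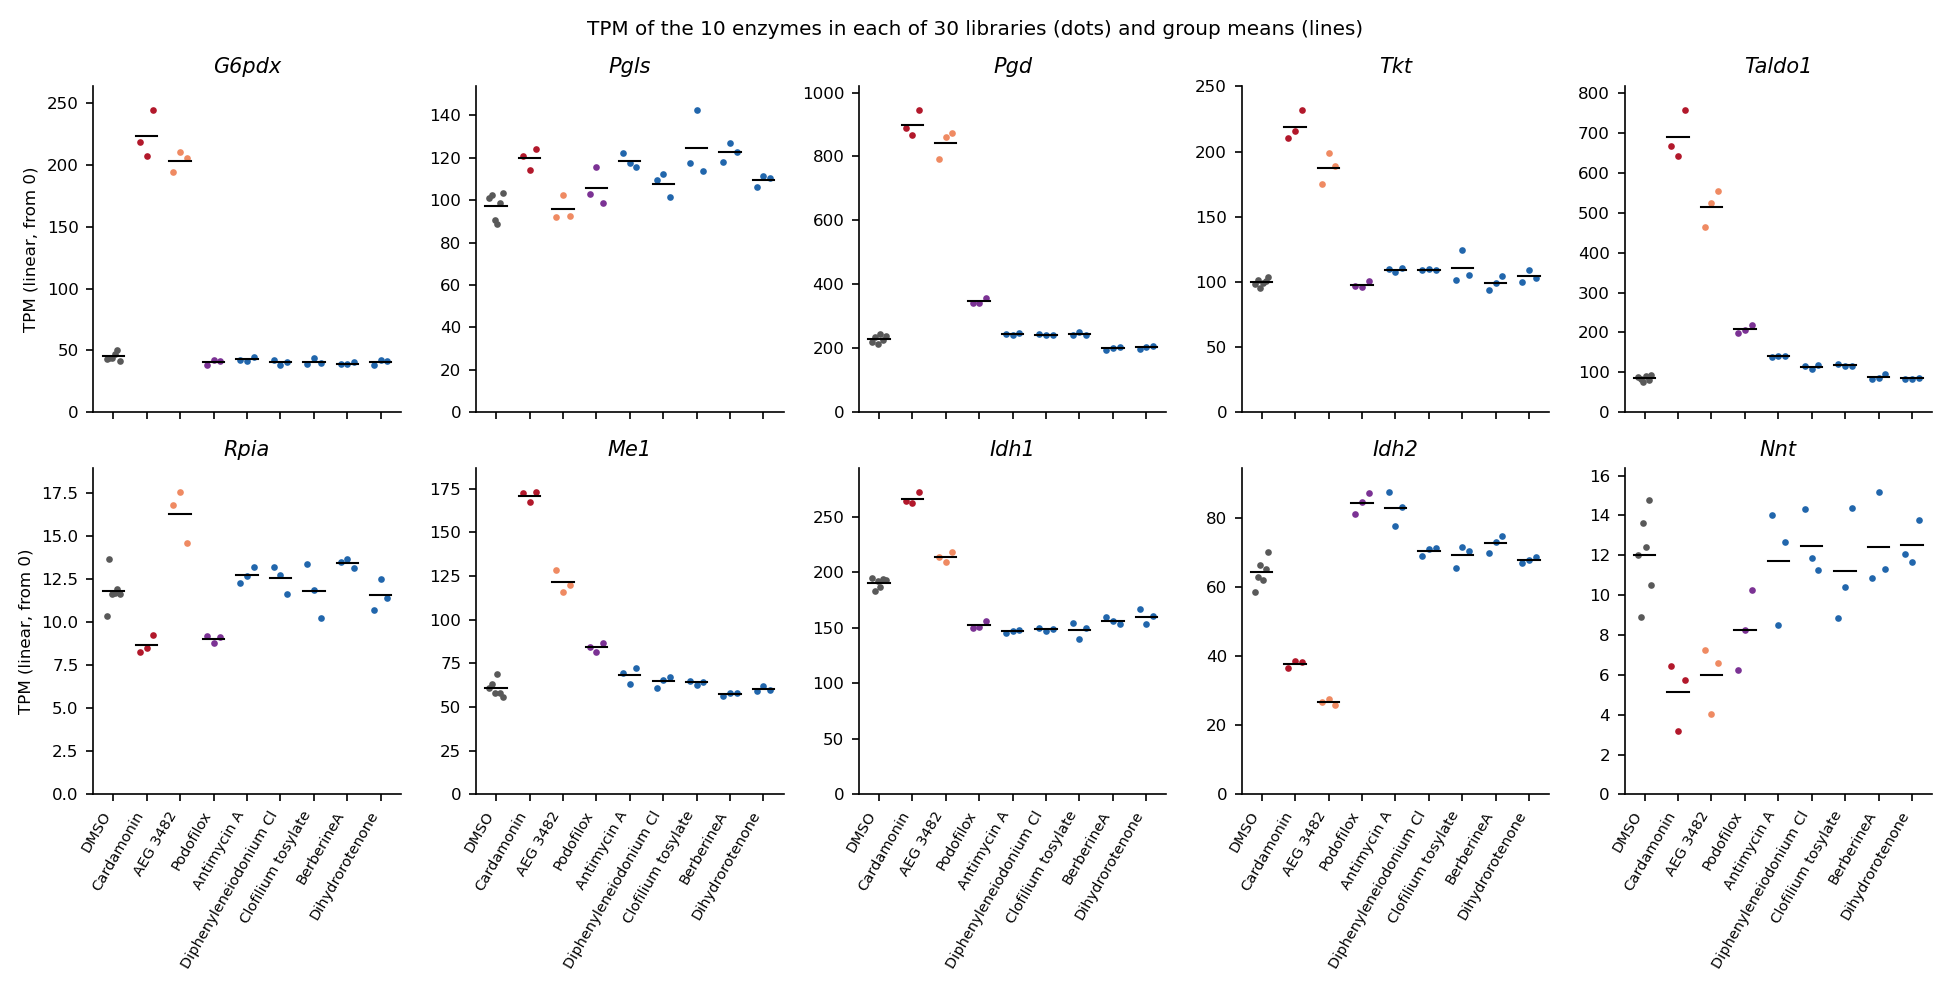
TPM of the 10 genes in each of the 30 libraries, by treatment group, on a linear axis from 0 for each gene; each point is 1 library and each line the mean of its group. G6pdx, Pgd, Tkt, Taldo1, Me1 and Idh1 are highest with Cardamonin and AEG 3482, and Idh2 is lowest there.

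Against DMSO, Cardamonin changed all 10 genes, 7 higher and 3 lower, where 70.3% of all tested genes were called, 37.3% higher and 33% lower. AEG 3482 changed 9, 7 higher and 2 lower (background 68.1%, as 41.3% higher and 26.8% lower), and Podofilox changed 8, 4 higher and 4 lower (background 46.2%, as 26.2% and 20%). Antimycin A changed 6, 5 higher and 1 lower (background 37.3%, as 21.8% and 15.5%). BerberineA changed 5, 2 higher and 3 lower (background 21.7%, as 12.6% and 9.16%). Diphenyleneiodonium Cl changed 3, 2 higher and 1 lower (background 25.7%, as 14% and 11.7%). Clofilium tosylate changed 3, 2 higher and 1 lower (background 23.4%, as 10.9% and 12.5%), and Dihydrorotenone changed 2, both lower (background 14.4%, as 4.95% and 9.43%). The libraries of a compound did not overlap those of DMSO for 10 genes with Cardamonin (61.6% of all tested genes), 9 with AEG 3482 (58.9%), 6 with Podofilox (38.5%), 5 with Antimycin A (31%), 4 with BerberineA (19.1%), and 3 each with Dihydrorotenone (14.9%), Diphenyleneiodonium Cl (24.5%) and Clofilium tosylate (20.8%). For several compounds these counts lie near the background, so the sizes are given next. The median change of the 10 was 0.80 on the log2 scale with Cardamonin, beside 0.03 over all tested genes. It was 0.67 with AEG 3482 beside 0.10, and between −0.01 and 0.12 with the other 6 compounds, beside medians of −0.03 to 0.04.

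**Figure D2:**
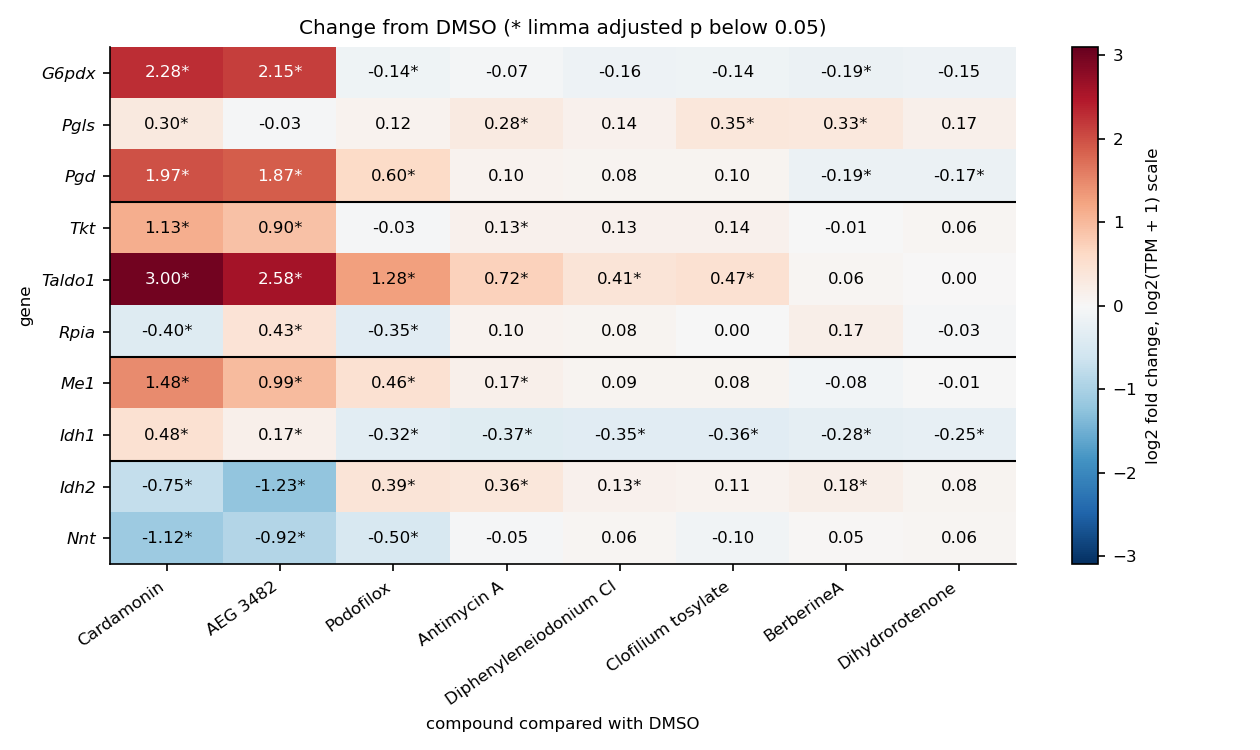
Change of each of the 10 genes against DMSO for each of the 8 compounds, as the difference in log2(TPM + 1) from limma; colour and printed number give the change, and an asterisk marks an adjusted p below 0.05. G6pdx, Pgd and Taldo1 have their darkest cells in the Cardamonin and AEG 3482 columns, from 1.87 (Pgd with AEG 3482) to 3.002 (Taldo1 with Cardamonin).

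G6pdx, which encodes the rate-limiting enzyme of the pathway (GRCm38 chrX:74409483-74429194, identifier ENSMUSG00000031400), rose about as far with Cardamonin as with AEG 3482 and with no other compound. The Cardamonin libraries read 218, 207 and 244 TPM and the AEG 3482 libraries 194, 211 and 205 TPM. In DMSO it lay between 41.5 and 50.2 TPM with a median of 44.0. Neither group overlapped DMSO. The rise was 2.28 (SE 0.06, limma adjusted p = 3.089e-21) with Cardamonin and 2.15 (SE 0.06, adjusted p = 1.829e-20) with AEG 3482. In the 18 libraries of the other 6 compounds G6pdx lay between 37.8 and 44.7 TPM. It was called lower with BerberineA (38.7, 39.1 and 40.2 TPM, a change of −0.19, adjusted p = 0.0217) and Podofilox (38.4, 41.9 and 41.6 TPM, −0.14, adjusted p = 0.0486). Both are small falls near the threshold. Changes of like size did not pass with Diphenyleneiodonium Cl (−0.16, adjusted p = 0.0535), Dihydrorotenone (−0.15, adjusted p = 0.0997) and Clofilium tosylate (−0.14, adjusted p = 0.0983). The BerberineA call was lost without BerberineA replicate 1 (adjusted p = 0.0754) or 2 (0.0726) or DMSO replicate 5 (0.0512), and in a fit of the 2 groups alone (0.0646). The Podofilox call was lost without any 1 of its 3 replicates (0.240, 0.0555 and 0.0673 in order) or DMSO replicate 2 (0.0552), 4 (0.0880) or 5 (0.112). It was also lost with no filter on low values (0.0712), by rescaling without the 20 most abundant genes (0.0601) and in a fit of the 2 groups alone (0.0918).

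Ikbkg, a subunit of the NF-κB kinase complex, overlaps all 19712 bases of G6pdx on the opposite strand and shares 11.8% of the 31-base words of G6pdx transcripts, and the use of strand is not stated in the sources used here. Ikbkg rose by 1.496 with Cardamonin, 1.12 with AEG 3482 and 0.74 with Podofilox, the last a compound with which G6pdx was called lower near the threshold. Smaller rises of Ikbkg were called with Diphenyleneiodonium Cl (0.41), Clofilium tosylate (0.34) and Antimycin A (0.34). Whether reads were shared between the genes was not tested. The retrogene copy G6pd2 shares 12.6% of these words and read at most 0.0518 TPM in any library.

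Pgls (chr8:71592176-71601092, ENSMUSG00000031807), whose lactonase hydrolyses the product of the first step, kept to a narrow range, from 88.8 to 142.5 TPM over all 30 libraries. It was called higher with Clofilium tosylate (118, 142.5 and 114 TPM, a change of 0.35, adjusted p = 2.125e-04), BerberineA (0.33, adjusted p = 3.95e-04), Cardamonin (0.30, adjusted p = 1.836e-04) and Antimycin A (0.28, adjusted p = 9.11e-04), each with an SE of 0.06. In these 4 groups all libraries lay above the highest DMSO library, 104 TPM. The Dihydrorotenone libraries did as well, though the change there did not pass (0.17, adjusted p = 0.0813). With AEG 3482, which raised G6pdx and Pgd, Pgls read 92.0, 103 and 92.6 TPM, within the DMSO range (−0.03, adjusted p = 0.740). This depended on the scaling: Pgls was called lower with AEG 3482 by median ratios (−0.18, adjusted p = 0.026) and by quantiles (−0.195, adjusted p = 0.0099). The overlapping gene Fam129c shares 19.5% of the 31-base words of Pgls and averaged 6.18 to 8.71 TPM per group.

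Pgd (chr4:149149991-149166771, ENSMUSG00000028961), the second NADPH-forming dehydrogenase, rose with 3 compounds. It read 889, 866 and 945 TPM with Cardamonin, 791, 861 and 874 TPM with AEG 3482, and 340.2, 343 and 357 TPM with Podofilox. The 6 DMSO libraries ran from 212 to 243 TPM with a median of 231. None of the 3 groups overlapped DMSO, and Podofilox fell between DMSO and the other 2. The changes were 1.97 (adjusted p = 3.976e-23), 1.87 (adjusted p = 2.596e-22) and 0.60 (adjusted p = 4.1e-12), each with an SE of 0.04. Small falls were called with BerberineA (195, 201 and 205 TPM, −0.19, adjusted p = 7.117e-04) and Dihydrorotenone (197, 203 and 208 TPM, −0.17, adjusted p = 0.00388). All 6 of these libraries lay below the lowest DMSO library. Fitted on the Dihydrorotenone and DMSO libraries alone, the Dihydrorotenone fall had an adjusted p of 0.0632.

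Summed over the 3 oxidative-branch genes, the DMSO libraries held 372 ± 14.0 TPM (SD, n = 6) and the Cardamonin libraries 1243 ± 64.1 TPM (n = 3), or 3.35 times the DMSO mean. The sum was 1141 ± 55.7 TPM (3.07 times) with AEG 3482 and 493.3 ± 10.4 TPM (1.33 times) with Podofilox. Pgd made up most of each sum.

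In the non-oxidative branch, Taldo1 (chr7:141392199-141402968, ENSMUSG00000025503), transaldolase, had the largest rise of the 10 genes with each of Cardamonin, AEG 3482, Podofilox, Antimycin A, Diphenyleneiodonium Cl and Clofilium tosylate. Cardamonin libraries read 669, 642 and 758 TPM and AEG 3482 libraries 464, 524 and 555 TPM. Podofilox libraries read 199.8, 206 and 218 TPM, and Antimycin A libraries 139, 141.5 and 141 TPM. DMSO libraries ran from 75.9 to 93.4 TPM, with a median of 85.1. The 4 groups therefore stood above DMSO in that order, with no overlap between neighbours. Changes were 3.002 (adjusted p = 5.381e-23), 2.58 (adjusted p = 2.249e-21), 1.28 (adjusted p = 1.264e-14) and 0.72 (adjusted p = 1.062e-09), each with an SE of 0.06. Smaller rises were called with Clofilium tosylate (122, 116 and 116 TPM, 0.47, adjusted p = 3.408e-06) and Diphenyleneiodonium Cl (115, 108 and 117 TPM, 0.41, adjusted p = 1.478e-05). BerberineA (0.06) and Dihydrorotenone (0.00) did not pass, and their libraries overlapped DMSO. By change from the highest, Taldo1 was number 41 of 13644 tested genes with Cardamonin, 33 with AEG 3482 and 88 with Podofilox. Of its transcripts, 13.8% of the 31-base words also occur in Gm17823, which has no values in these data.

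Tkt (chr14:30548359-30574720, ENSMUSG00000021957), transketolase, moved less far. It read 210.1, 215 and 232 TPM with Cardamonin and 175, 199 and 189 TPM with AEG 3482, against 95.3 to 104 TPM in DMSO, with a median of 100.1. The groups did not overlap, and the changes were 1.13 (SE 0.05, adjusted p = 3.297e-16) and 0.90 (SE 0.05, adjusted p = 5.574e-14). With Podofilox, which raised Taldo1 and Pgd, Tkt read 96.5, 96.0 and 101 TPM, within the DMSO range (−0.03). A rise of 0.13 with Antimycin A (109.8, 107 and 111 TPM) was called at an adjusted p of 0.0490. That call was lost when any 1 of the 3 Antimycin A replicates or of DMSO replicates 1 to 5 was left out (adjusted p = 0.0578 to 0.142) and under 3 other scalings (0.128 by median ratios, 0.123 by quantiles, 0.154 without the 20 most abundant genes). It was also lost with no filter on low values (0.0684). Differences of like size with Diphenyleneiodonium Cl (0.13, adjusted p = 0.0653) and Clofilium tosylate (0.14, adjusted p = 0.0536) did not pass.

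Rpia (chr6:70765720-70792232, ENSMUSG00000053604), which makes ribose 5-phosphate, the sugar of nucleotides, went in opposite directions with Cardamonin and AEG 3482. Cardamonin libraries read 8.30, 8.49 and 9.26 TPM and AEG 3482 libraries 16.8, 17.6 and 14.6 TPM. Podofilox libraries, at 9.22, 8.79 and 9.14 TPM, lay with the Cardamonin ones. In DMSO it ran from 10.4 to 13.7 TPM with a median of 11.7, so that all 3 groups lay outside the DMSO range, AEG 3482 above it and the other 2 below. The changes were −0.40 (adjusted p = 2.598e-05), 0.43 (adjusted p = 1.197e-05) and −0.35 (adjusted p = 3.231e-04), each with an SE of 0.07. With the other 5 compounds it lay between 10.2 and 13.7 TPM and was not called.

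The non-oxidative sum of Tkt, Taldo1 and Rpia was 197 ± 8.73 TPM in DMSO (SD, n = 6). It reached 918 ± 71.1 TPM with Cardamonin (4.66 times), 718 ± 54.3 TPM with AEG 3482 (3.65 times), 315 TPM with Podofilox (1.60 times) and 263 TPM with Antimycin A (1.33 times).

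Me1 (chr9:86581371-86695953, ENSMUSG00000032418), cytosolic malic enzyme, rose with the 3 compounds that raised Pgd and, by less, with Antimycin A. It read 172.5, 167 and 173 TPM with Cardamonin, 128, 116 and 120.03 TPM with AEG 3482 and 84.5, 81.3 and 86.4 TPM with Podofilox, against 55.9 to 68.9 TPM in DMSO, with a median of 59.7. Each of the 3 groups lay above DMSO, and none overlapped another. The changes were 1.48 (adjusted p = 1.2e-18), 0.99 (adjusted p = 7.416e-15) and 0.46 (adjusted p = 4.285e-08), each with an SE of 0.05. A rise of 0.17 with Antimycin A (69.7, 63.2 and 72.5 TPM, adjusted p = 0.0114) overlapped DMSO. It was lost without Antimycin A replicate 1 (0.15, adjusted p = 0.0556) or 3 (0.13, adjusted p = 0.105) and in a fit of those 2 groups alone (adjusted p = 0.0868). Me1 shares 28.6% of its 31-base words with Gm7049 and 21.97% with Gm48795, neither of which has values in these data.

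Idh1 (chr1:65158616-65186500, ENSMUSG00000025950), cytosolic isocitrate dehydrogenase, was called with all 8 compounds, higher with 2 and lower with 6. Cardamonin libraries read 264, 262 and 272 TPM and AEG 3482 libraries 214, 209 and 218 TPM, above the DMSO range of 183 to 195 TPM (median 192). All 18 libraries of the other 6 compounds lay between 139.9 and 167 TPM, below every DMSO library. The changes were 0.48 with Cardamonin (SE 0.03, adjusted p = 7.865e-13) and 0.17 with AEG 3482 (SE 0.03, adjusted p = 6.307e-05). The falls ran from −0.25 with Dihydrorotenone (adjusted p = 1.108e-05) to −0.37 with Antimycin A (adjusted p = 1.083e-09). The AEG 3482 rise depended on the scaling: it was 0.01 (adjusted p = 0.811) when libraries were rescaled by median ratios and 0.02 (adjusted p = 0.712) after quantile normalization. The median-ratio scaling moved the AEG 3482 median of all genes by −0.13.

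Together Me1 and Idh1 summed to 251 TPM in DMSO, 437 TPM with Cardamonin (1.74 times) and 335 TPM with AEG 3482 (1.33 times). With the other 6 compounds the sum was 0.84 to 0.94 times the DMSO mean.

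The mitochondrial genes moved the other way with these 2 compounds. Idh2 (chr7:80094846-80115392, ENSMUSG00000030541), which carries out the reaction of Idh1 inside mitochondria, read 36.6, 38.7 and 38.4 TPM with Cardamonin and 26.8, 27.6 and 25.8 TPM with AEG 3482. DMSO libraries ran from 58.7 to 70.3 TPM with a median of 64.2. Both groups lay wholly below DMSO, AEG 3482 the lower. The falls were −0.75 (SE 0.05, adjusted p = 1.51e-13) and −1.23 (SE 0.05, adjusted p = 1.074e-17). Idh2 rose with Podofilox (81.4, 84.8 and 87.3 TPM, 0.39, adjusted p = 1.305e-07) and Antimycin A (87.5, 77.9 and 83.2 TPM, 0.36, adjusted p = 7.161e-07). All 6 of those libraries lay above DMSO.

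Idh2 also rose a little with BerberineA (70.0, 73.2 and 75.0 TPM, 0.18, adjusted p = 0.0065) and Diphenyleneiodonium Cl (69.1, 71.2 and 71.5 TPM, 0.13, adjusted p = 0.0338). Both groups overlapped the highest DMSO library. The BerberineA call was lost without BerberineA replicate 3 (adjusted p = 0.0504) and in a fit of the 2 groups alone (0.0668). The Diphenyleneiodonium Cl call was lost without any 1 of its 3 replicates (0.0528, 0.107 and 0.117 in order) or DMSO replicate 1 (0.0767), 2 (0.0562) or 4 (0.0582). It was also lost by median ratios (0.0608), without the 20 most abundant genes (0.0750) and in a fit of the 2 groups alone (0.113).

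Nnt (chr13:119335448-119408997, ENSMUSG00000025453), the transhydrogenase of the inner mitochondrial membrane, was low and variable. It read 6.46, 3.18 and 5.73 TPM with Cardamonin, 7.25, 4.06 and 6.61 TPM with AEG 3482 and 6.26, 8.24 and 10.2 TPM with Podofilox, against 8.92 to 14.8 TPM in DMSO, with a median of 12.2. Cardamonin and AEG 3482 lay below DMSO, and Podofilox overlapped it. The falls were −1.12 (adjusted p = 1.603e-05), −0.92 (adjusted p = 1.968e-04) and −0.50 (adjusted p = 0.0383), each with an SE of 0.20. The Podofilox fall was lost without Podofilox replicate 1 (−0.34, adjusted p = 0.244) or 2 (0.0770), or without DMSO replicate 1 (0.0528), 3 (0.0673), 4 (0.0549) or 5 (0.0766). It was also lost with no filter on low values (0.0713). With the other 5 compounds Nnt ran from 8.48 to 15.2 TPM and was not called. The reference annotation holds a second, overlapping Nnt model that shares 47.1% of the 31-base words of this one. That model has no values in these data, so whether reads were shared with it could not be examined. C57BL/6J, one of the strains behind UMHet3 mice, carries a deletion within Nnt; whether this line carries it was not tested.

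Idh2 and Nnt together summed to 76.4 TPM in DMSO, 43.0 TPM with Cardamonin (0.563 times) and 32.7 TPM with AEG 3482 (0.428 times). They stood at 92.7 TPM with Podofilox (1.21 times) and 94.6 TPM with Antimycin A (1.24 times).

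**Figure D3:**
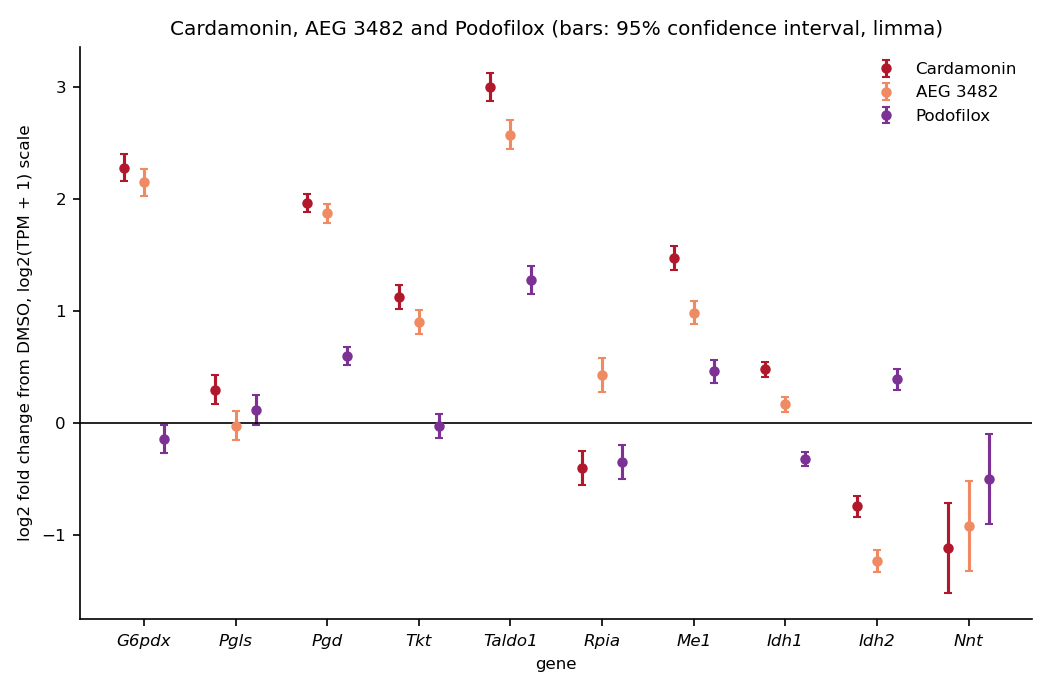
Change against DMSO, in log2(TPM + 1), of the 10 genes with Cardamonin, AEG 3482 and Podofilox, ordered by role; points are limma estimates and bars their 95% confidence intervals. Rpia lies on opposite sides of 0 for Cardamonin and AEG 3482, and Idh2 is the 1 gene below 0 for both of these and above 0 for Podofilox.

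Cardamonin and AEG 3482 were then compared with each other in the same fit, a contrast in which 55.3% of tested genes were called. Of the 10 genes, 7 differed. Cardamonin was higher for Me1 (0.49, adjusted p = 1.122e-07), Idh2 (0.49, adjusted p = 2.138e-08), Taldo1 (0.42, adjusted p = 1.624e-05), Pgls (0.32, adjusted p = 5.35e-04), Idh1 (0.31, adjusted p = 8.577e-08) and Tkt (0.22, adjusted p = 0.00233). It was lower for Rpia (−0.84, adjusted p = 6.29e-09), the largest of these differences. G6pdx, Pgd and Nnt did not pass. For G6pdx the difference was 0.13 with a 95% interval of −0.0077 to 0.27 (adjusted p = 0.103), for Pgd 0.10 with an interval of 0.0027 to 0.19 (adjusted p = 0.0756), and for Nnt −0.20 with an interval of −0.66 to 0.27 (adjusted p = 0.480); the intervals are not adjusted. The intervals for G6pdx and Nnt include differences in either direction, and that for Nnt includes differences larger than several of those called, so the 2 compounds are not shown to act alike on these genes. The doses of the 2 compounds are not used here, so the sizes cannot be set against dose.

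Podofilox differed from both. Against Cardamonin (57.8% of genes called), 9 of the 10 genes differed: Cardamonin was higher by 2.43 for G6pdx, 1.72 for Taldo1, 1.37 for Pgd, 1.16 for Tkt, 1.01 for Me1, 0.80 for Idh1 and 0.18 for Pgls (adjusted p = 0.0359), and lower by −1.14 for Idh2 and −0.62 for Nnt (adjusted p = 0.0223). Rpia did not pass (adjusted p = 0.610). Against AEG 3482 (60.3% called), 8 differed, all but Pgls and Nnt. With Podofilox, then, Taldo1, Pgd and Me1 rose while G6pdx and Tkt did not.

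Antimycin A and Dihydrorotenone, inhibitors of complex III and complex I of the respiratory chain, differed from each other for 5 genes, where 15.5% of all genes were called. Antimycin A was higher for Taldo1 (0.72), Idh2 (0.28), Pgd (0.27) and Me1 (0.18, adjusted p = 0.039) and lower for Idh1 (−0.12, adjusted p = 0.024). Dihydrorotenone and BerberineA differed for none of the 10, where 1.51% of genes were called. Taldo1 separated the compounds most often: it passed in 26 of the 28 pairs, the exceptions being Dihydrorotenone with BerberineA (adjusted p = 0.733) and Diphenyleneiodonium Cl with Clofilium tosylate (adjusted p = 0.778; 3.15% of genes called). Pgd passed in 23 pairs, Idh2 in 21, Me1 in 20, Rpia in 17, Tkt in 16, Idh1 in 14, Nnt in 13, G6pdx in 12 and Pgls in 9. In all, 171 of 280 tests passed, or 61.1%, beside 38.7% over all genes and pairs (0.623% to 67.1% per pair); the pairs share libraries, and these counts are not independent.

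Ratios of paired genes within a library, given as a description with no test, show the unequal movement. Idh1 to Idh2 was 2.97 ± 0.194 in DMSO (SD, n = 6), 7.01 ± 0.228 with Cardamonin and 8.00 ± 0.420 with AEG 3482, and it lay below DMSO with the other 6 compounds, from 1.77 ± 0.117 with Antimycin A to 2.36 ± 0.120 with Dihydrorotenone. Pgd to G6pdx was 5.10 ± 0.413 in DMSO, 4.04 ± 0.158 with Cardamonin, 4.14 ± 0.0968 with AEG 3482 and 8.54 ± 0.336 with Podofilox. Taldo1 to Tkt was 0.853 ± 0.0528 in DMSO, 3.14 ± 0.148 with Cardamonin, 2.74 ± 0.172 with AEG 3482, 2.13 ± 0.0512 with Podofilox and 1.28 ± 0.0301 with Antimycin A.

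**Figure D4:**
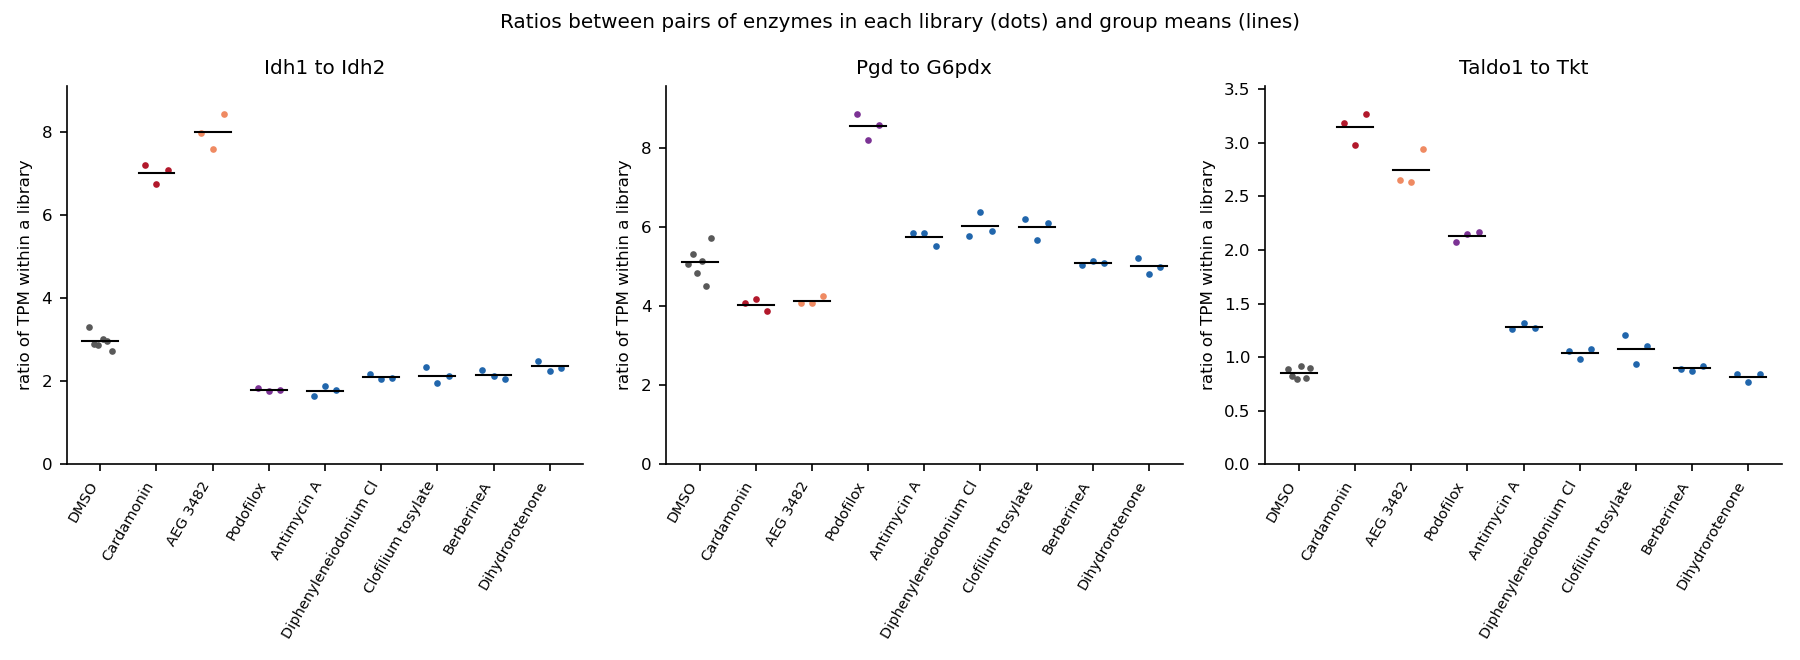
TPM ratios within each library, on linear axes from 0, for Idh1 to Idh2, Pgd to G6pdx and Taldo1 to Tkt, by group; points are libraries and lines group means. Idh1 to Idh2 is highest with AEG 3482 and Cardamonin, and Pgd to G6pdx is highest with Podofilox.

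Counts in the gene lists that follow are set against the shares of all tested genes called higher and lower, which were 37.3% and 33% with Cardamonin (median change 0.03), 41.3% and 26.8% with AEG 3482 (median 0.10) and 26.2% and 20% with Podofilox (median 0.04). Of 10 further pentose phosphate genes, 7 were tested (Tktl1, Tktl2 and G6pd2 were below the filter). With Cardamonin 3 rose and 3 fell (median 0.02), a split close to those shares. With AEG 3482 also 3 rose and 3 fell (median −0.06), a larger share lower than the 26.8% of all genes, though 7 genes are few. Prps2, which makes phosphoribosyl pyrophosphate from ribose 5-phosphate, fell by 1.33, 1.01 and 0.68 with Cardamonin, AEG 3482 and Podofilox. Shpk, a sedoheptulose kinase, fell by 1.12, 0.60 and 0.45. Rpe, the epimerase, rose by 0.57 with Cardamonin, and Pgm2 by 0.51 with AEG 3482.

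A further list held 9 other genes linked to NADPH or NADP, among them NAD kinases. Of these, 2 rose and 6 fell with Cardamonin (median −0.37), and 2 rose and 5 fell with AEG 3482 (median −0.36). With Podofilox 2 rose and 6 fell (median −0.24). Of all genes, 33%, 26.8% and 20% were called lower with these compounds, in that order. Mthfd2, a mitochondrial folate dehydrogenase, rose by 2.49 with Cardamonin, 1.13 with AEG 3482, 2.06 with Podofilox, 1.62 with Antimycin A and 1.63 with Clofilium tosylate. It fell by 0.54 with Dihydrorotenone and by 0.61 with Diphenyleneiodonium Cl. Aldh1l1, the cytosolic formyltetrahydrofolate dehydrogenase, fell by 1.13, 0.999 and 0.85 with Cardamonin, AEG 3482 and Podofilox. Aldh1l2, its mitochondrial counterpart, rose by 1.97 with Podofilox. Nadk, the cytosolic NAD kinase, fell by 0.90 with AEG 3482. Of the 6 NAD-linked counterparts, 3 rose and 2 fell with Cardamonin and 2 rose and 2 fell with AEG 3482, where 70.3% and 68.1% of all genes were called. The largest of these changes were Me2 at 0.70 and Idh3g at −0.59 with AEG 3482.

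Of 12 enzymes that use NADPH, 6 rose and 4 fell with Cardamonin (median 0.23), 7 rose and 1 fell with AEG 3482 (median 0.58) and 3 rose and 2 fell with Podofilox (median −0.02), beside 37.3%, 41.3% and 26.2% of all genes called higher. Blvrb, a biliverdin and flavin reductase, rose by 3.18 with Cardamonin and 2.94 with AEG 3482. Glutathione reductase, Gsr, rose by 2.84, 2.56 and 0.91 with Cardamonin, AEG 3482 and Podofilox, and thioredoxin reductase, Txnrd1, by 2.77, 2.71 and 1.10. With Antimycin A, where 21.8% of all genes were called higher and 15.5% lower, 3 rose and 5 fell, among them Fasn, fatty acid synthase, which fell by 0.81.

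Another list held 8 genes for enzymes and regulators of early glycolysis, at and below glucose 6-phosphate. Of these, 4 rose and 4 fell with Cardamonin, 4 rose and 1 fell with AEG 3482 and 5 rose and 1 fell with Podofilox. With these compounds 70.3%, 68.1% and 46.2% of all genes were called, in that order. Hk2, a hexokinase, rose by 1.45 with Cardamonin and 1.13 with Podofilox. Pfkfb3, whose product raises glycolytic flux, fell by 1.41 with Cardamonin, fell by 2.23 with AEG 3482 and rose by 0.96 with Podofilox. Tigar, a phosphatase that favours the pentose phosphate pathway, rose by 1.13, 0.67 and 0.53 with the 3 compounds. Of 12 tested replication genes (Mki67 and Mcm5 were below the filter), 3 rose and 6 fell with Cardamonin, 6 rose and 4 fell with AEG 3482 and 4 rose and 4 fell with Podofilox, beside the same shares. The summed level of the 14 replication genes went the other way from the Cardamonin count, at 239.7 ± 8.59 TPM (SD, n = 3) against 164 ± 5.58 TPM in DMSO (n = 6) with no overlap; Pcna (107 against 49.0 TPM) and Mcm7 (77.4 against 26.0 TPM), 2 of the 3 that rose, made up most of it, and Pcna is named after its values were seen.

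Of 6 genes for NRF2 and its regulators, 6 rose with Cardamonin, 5 with AEG 3482 and 6 with Podofilox, and none was called lower with these 3, beside 37.3%, 41.3% and 26.2% of all genes called higher. Mafg, a small partner protein of NRF2, rose by 1.27, 1.43 and 0.67. Beside them, 3 NRF2 targets outside the NADPH enzymes gave different patterns with Podofilox. Nqo1, a quinone reductase, changed by 3.25 with Cardamonin and 2.83 with AEG 3482 but by 0.04 with Podofilox. Hmox1, heme oxygenase, changed by 4.54, 3.80 and 0.56 in that order. Srxn1, sulfiredoxin, changed by 4.04, 3.92 and 1.55. Outside these 3 compounds, Nqo1 was called higher with Diphenyleneiodonium Cl (0.68), Antimycin A (0.41), Clofilium tosylate (0.30) and BerberineA (0.21). Srxn1 was called higher with Antimycin A (0.30) and lower with BerberineA (−0.40) and Dihydrorotenone (−0.29). Hmox1 was called lower with Dihydrorotenone (−0.32) and BerberineA (−0.32). The value for Nqo1 with Podofilox lies near 0, like those for G6pdx and Tkt, while that for Srxn1 exceeds those for Taldo1 and Pgd.

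The genes whose log2(TPM + 1) followed each of 3 enzymes most closely over the 9 group means were sought among 9626 protein-coding genes; these correlations describe 9 points that share the same libraries. For G6pdx they were Ptgr1, a reductase that itself uses NADPH (Pearson r = 0.998), Exosc3 (0.997) and Mrps6 (0.997). The G6pdx means with Cardamonin and AEG 3482 lie far from all others and weigh most in r. A high r does not mean changes of like size. With Cardamonin Exosc3 changed by 0.35, beside 2.28 for G6pdx, and Dusp4 by 3.67, beside 1.48 for Me1. Me1 was followed by Dusp4, a phosphatase of MAP kinases (0.996), Inip (0.995) and Aspscr1 (0.995), and Nnt by Cygb, cytoglobin (0.997), Rmdn1 (0.996) and Igfbp5 (0.995). Among the 10 genes themselves, Pgd and Taldo1 (0.987), Taldo1 and Me1 (0.985) and G6pdx and Tkt (0.982) were closest, and Taldo1 and Nnt (−0.983) and Pgd and Nnt (−0.983) lay farthest apart.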

How the data were processed

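Ribosome-depleted total RNA of 30 libraries was sequenced, per the labels' protocols. Reads were quantified against mm10 with kallisto 0.43.1, per the submitters' processing notes, and summed per gene with tximport, per the series text. The deposited values are TPM made by the authors; the columns sum to 927024 to 937134, or 92.7% to 93.7% of 1000000. Depth is unknown from TPM, so precision rests on the spread between replicates, and no counting interval is given.

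Groups came from the treatment labels, which name 6 DMSO libraries, all used here; the design text of the series counts only 5 for DMSO and does not say which library that leaves out. Values were taken as log2(TPM + 1), which understates the change of low genes. Genes at 1 TPM or more in at least 3 libraries (13644) were fitted with limma 3.58.1 in R 4.3.3, over all 30 libraries, with no block and a trended empirical Bayes prior. P-values were adjusted by Benjamini-Hochberg over all genes within each of 8 comparisons with DMSO and 28 between compounds, with a threshold of 0.05. The fit was tested on simulated data. Symbols and positions are from GENCODE M21 (GRCm38) and promoter sequences from RefSeq (GRCm38.p6).

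The 10 genes, the gene lists and the alternatives were chosen with earlier results of these data known. All 10 genes are named. Of each list, at most 3 genes past the threshold with the largest change in a comparison are named. For G6pdx, Me1 and Nnt the 3 genes with the highest correlation over group means, among protein-coding genes with a mean of at least 5 TPM, are named. Nqo1, Hmox1 and Srxn1 are given as NRF2 targets, and Ikbkg, Fam129c and G6pd2 were named after their values were seen. The other named genes that overlap or share sequence have no values in these data. Alternatives changed the pseudocount, the filter, the scaling, the groups fitted, the block and the libraries, 1 at a time.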

Additional observations from a re-analysis of the deposited data

How the results depend on the processing

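Of the 46 calls among the 80 pairs of gene and compound, 37 had the same direction and an adjusted p below 0.05 in all 19 alternatives run for each, 9 missed the threshold in at least 1 and none changed direction. Of the 34 pairs not called, 11 passed in some alternative and 11 changed sign in some. The number of the 10 genes called with Clofilium tosylate, 3 as reported, was 7 after quantile normalization, 6 with a replicate block and 3 to 5 with 1 library left out. In fits of the 2 groups alone, 1 gene was called with Dihydrorotenone and 3 with BerberineA; the cause was not tested. With 1 library left out, the counts ran from 4 to 7 with Antimycin A, 2 to 4 with Diphenyleneiodonium Cl, 4 to 6 with BerberineA and 6 to 8 with Podofilox, and stayed at 2 with Dihydrorotenone, 10 with Cardamonin and 9 with AEG 3482; direct contrasts gave 164 to 173 calls.

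Whether the replicate numbers pair the libraries is not settled. Over 108 same-numbered pairs, deviations from group means correlated at −0.282 to 0.277. Their median was 0.0171, beside −0.0119 for other-numbered pairs. Of the 108 pairs 25 lay over 0.1, and 14 of 27 libraries correlated best with their own number. With the block, G6pdx lost its calls with BerberineA (adjusted p = 0.0763) and Podofilox (0.154) and Nnt its call with Podofilox (0.0991); the direct contrasts gave 175 calls.

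Signs that changed all belong to small differences that did not pass. By median ratios, Rpia and Me1 with Dihydrorotenone were 0.0018 and 0.022, by quantiles 0.0065 and 0.016. Without the 20 most abundant genes, Taldo1 with Dihydrorotenone was −0.011. With the block, Nnt with Antimycin A was 0.014 and Tkt with BerberineA 0.015. With 1 library left out, Nnt ran from −0.18 to 0.15 with Antimycin A, −0.012 to 0.12 with Dihydrorotenone, −0.037 to 0.12 with Diphenyleneiodonium Cl, −0.094 to 0.13 with BerberineA and −0.28 to 0.038 with Clofilium tosylate. Rpia ran from −0.085 to 0.019 with Dihydrorotenone and −0.091 to 0.087 with Clofilium tosylate. The remaining ranges were −0.036 to 0.024 for Me1 and −0.032 to 0.027 for Taldo1 with Dihydrorotenone, −0.048 to 0.032 for Tkt with BerberineA and −0.076 to 0.0020 for Pgls with AEG 3482.

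Median-ratio scaling moved the share of called genes that were higher from 60.7% to 46.4% with AEG 3482, 34.4% to 50% with Dihydrorotenone and 57.9% to 47.5% with BerberineA. Of the 10 genes, it gave 6 higher and 3 lower with AEG 3482, as did quantile normalization; Idh1 lost its rise and Pgls was called lower.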
